A study of Mus musculus with 40 samples.

Results

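The mitochondrial uncoupling protein genes Ucp1, Ucp2 and Ucp3 were followed in brown adipose tissue (BAT) of 40 mice. They were chosen by name, as the carriers that bear the uncoupling protein symbol, and are 3 of the 20295 genes counted. All 3 were among the 13277 genes that passed the filter on low counts. UCP1 sits in the inner mitochondrial membrane of brown adipocytes and lets protons return to the matrix without ATP synthesis, so that the energy of fuel oxidation is released as heat. Its transcription rises with cyclic AMP, the second messenger of Gs-coupled receptors such as the β-adrenergic receptors, and free fatty acids activate the protein. UCP2 and UCP3 are close relatives in the same carrier family that do not replace UCP1 in thermogenesis. Ucp2 is expressed widely, also in immune cells, whereas Ucp3 is known mainly from skeletal muscle and BAT.

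All mice were male and housed at 29 °C, which is thermoneutral for a mouse and keeps sympathetic drive to BAT low. In the genetic cohort, control and C-3BO mice of 13 to 19 weeks of age were fed chow or were moved to high fat diet (HFD) for 7 days. C-3BO mice carry a Gpr3 transgene at ROSA26 behind a CAG promoter and a lox-STOP-lox cassette, which a Ucp1-Cre transgene opens, so that Gpr3, a constitutively active Gs-coupled receptor, is overexpressed in brown and beige adipocytes from early life. Their control littermates lacked either the Cre or the Gpr3 allele, and the labels do not say which control mouse was of which kind. In the injection cohort, control littermates of an inducible Gpr3 line, 15 weeks old, received the selective β3-adrenergic agonist that the study calls CL at 1 mg/kg or saline at 10 µL/g daily for 9 days on chow or HFD. Per the methods, tissue was taken on the day after the last CL dose, with chronic and not acute effects in view. The comparisons ask how each uncoupling protein gene responds to Gpr3 overexpression, to β3-adrenergic agonism and to dietary fat, with 5 mice in each of 8 groups.

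Ucp1 (NM_009463) lies on the plus strand of chromosome 8 at 85814247 to 85822355 of mm9, and 1644 of its exon bases were counted. Ucp3 (NM_009464) and Ucp2 (NM_011671) are neighbours on the plus strand of chromosome 7, at 107621500 to 107634941 with 2448 exon bases and at 107641867 to 107648138 with 1576. The end of Ucp3 is 6925 bases from the start of Ucp2. The 250 bases ahead of each start are printed from RefSeq's promoter windows (GRCm38.p6) because the 3 genes gave different patterns under the same stimuli. Each window occurs once, without a mismatch, on its chromosome of mm9, at chr8:85813997-85814246 for Ucp1, chr7:107641617-107641866 for Ucp2 and chr7:107621250-107621499 for Ucp3. Capitals mark TGACG, the core of a cyclic AMP response element, and AGGTCA, the core hexamer bound by nuclear receptors such as the PPARs and thyroid hormone receptors, on either strand.
Ucp1: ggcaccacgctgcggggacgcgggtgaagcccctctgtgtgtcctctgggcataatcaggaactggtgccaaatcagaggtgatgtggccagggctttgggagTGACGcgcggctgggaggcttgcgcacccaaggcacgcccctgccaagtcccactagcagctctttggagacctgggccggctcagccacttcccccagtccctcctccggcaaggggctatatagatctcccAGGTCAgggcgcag
Ucp2: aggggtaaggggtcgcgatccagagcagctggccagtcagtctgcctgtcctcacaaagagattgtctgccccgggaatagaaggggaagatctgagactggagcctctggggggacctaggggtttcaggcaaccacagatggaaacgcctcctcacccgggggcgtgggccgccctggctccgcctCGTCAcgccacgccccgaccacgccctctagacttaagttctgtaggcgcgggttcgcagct
Ucp3: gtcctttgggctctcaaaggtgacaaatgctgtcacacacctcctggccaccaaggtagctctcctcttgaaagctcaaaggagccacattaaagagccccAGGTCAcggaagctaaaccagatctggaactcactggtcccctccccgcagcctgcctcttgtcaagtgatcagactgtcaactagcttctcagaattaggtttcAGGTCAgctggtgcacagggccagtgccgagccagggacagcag

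TGACG or its reverse CGTCA occurred in the windows of Ucp1 and Ucp2, and in 17.8% of 32851 mouse promoter windows of this length. AGGTCA or its reverse TGACCT occurred in the windows of Ucp1 and Ucp3 and in 14.0% of all windows. Ucp3 held AGGTCA at 2 places, at -149 to -144 and at -44 to -39 counted from the start. In Ucp1 the TGACG stood at -147 to -143 and the AGGTCA at -14 to -9. None of the 3 windows held TATAAA or its reverse TTTATA, which 12.4% of all windows do. Only these exact letters were searched, so near matches such as tatata, which the Ucp1 window holds ahead of its AGGTCA, were not counted. The windows of Ucp1 and Ucp2 were 64.8% and 63.6% G and C with 12 and 16 CpG dinucleotides, against 54.8% and 3 for Ucp3 and medians of 52.4% and 6.0 over all windows. These matches are descriptions of letters, and distal enhancers, through which Ucp1 is known to be regulated, lie outside the windows.

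Library totals ranged from 849126 to 15260516 counts. All libraries of HFD saline, all of HFD CL and replicates 4 and 5 of HFD C-3BO were the 12 with the lowest totals. No wide gap in totals set them apart, since HFD saline replicate 3 had 7284129 counts and HFD C-3BO replicate 1 had 7349348. These 12 libraries also held liver transcripts (summed CPM of 12 liver genes 92.2 to 263 in HFD saline and 149 to 299 in HFD CL, against at most 6.52 in every chow group). The fewest counts behind a value below were 41, for Ucp3 in HFD saline replicate 4. For the injected mice, diet and this set of libraries cannot be told apart. Gpr3 was at 266 to 463 CPM in chow C-3BO and 688 to 918 CPM in HFD C-3BO, against at most 0.744 CPM in the controls. Among the injected mice it was at most 1.18 CPM apart from 1 chow CL mouse at 9.15 CPM. The fat cell genes Adipoq and Cidea were at 878 CPM or more and 1583 CPM or more in every library.

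CPM here are counts relative to the library total after TMM scaling, the factors by which edgeR sets library sizes on one scale, and values are given in order of replicate number. Ucp1 dominated the family in every mouse. Per kilobase of counted exon, it made up 84.7% to 98.1% of the summed level of the 3 genes. Ucp1 ranged 14.2-fold over the 40 mice, from 1116 to 15798 CPM, Ucp3 ranged 10.8-fold, from 41.1 to 445 CPM, and Ucp2 ranged 3.32-fold, from 47.4 to 157 CPM. Ucp2 exceeded Ucp3 per kilobase in chow controls, at 60.5 ± 12.8 against 36.6 ± 11.0 CPM per kilobase (SD, n = 5). In HFD C-3BO Ucp2 and Ucp3 stood at 47.5 ± 4.28 and 143.7 ± 27.3.

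**Figure D1:**
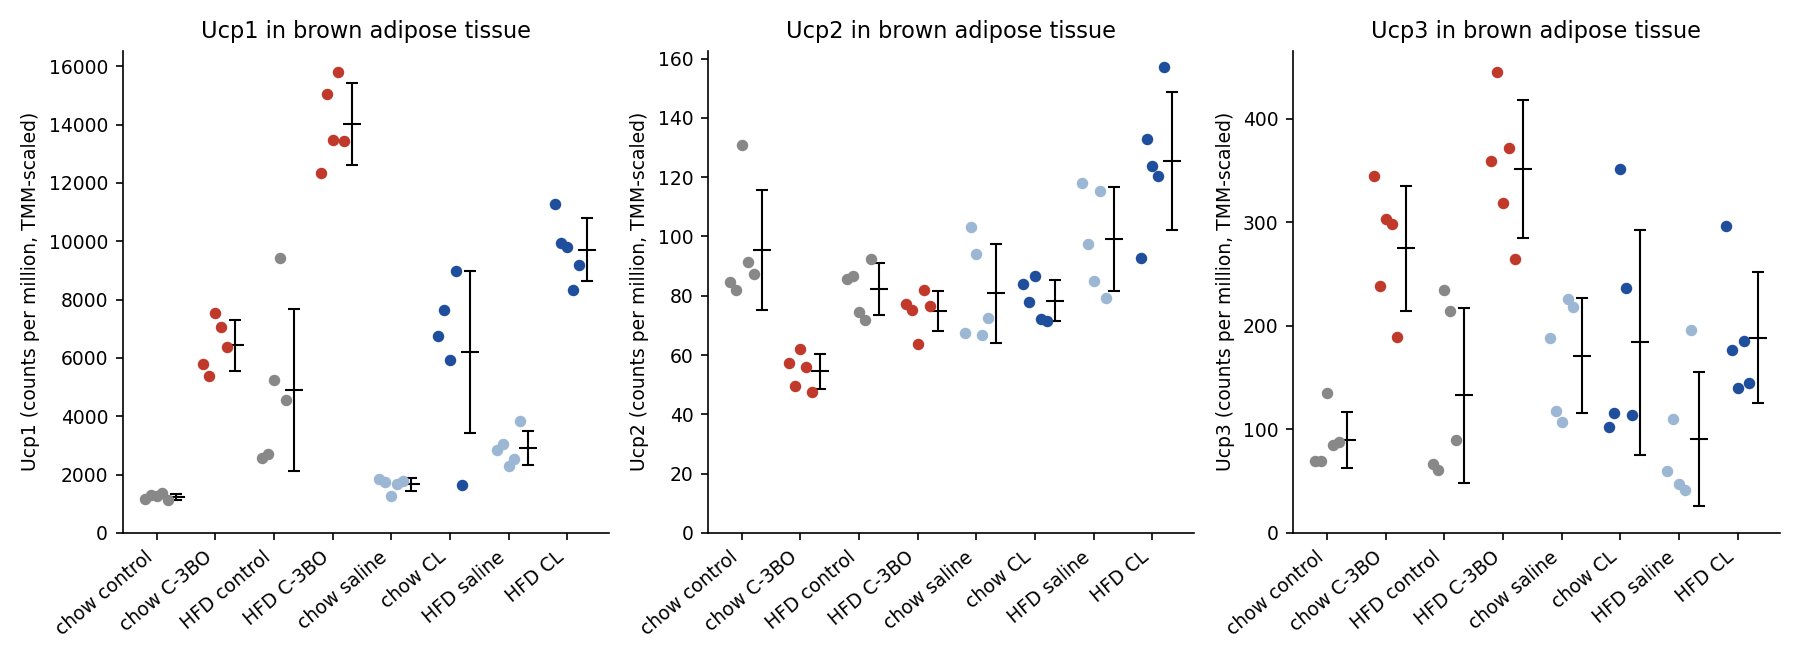
CPM (TMM-scaled, linear axes from 0) of Ucp1, Ucp2 and Ucp3 in each of 40 mice, by group, with the group mean and SD beside the points (n = 5). Ucp1 was highest in HFD C-3BO (mean 14019 CPM), Ucp2 was lowest in chow C-3BO (54.5 CPM), and 1 chow CL mouse had Ucp1 at 1644 CPM while the other 4 were at 5943 or more.

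On chow, C-3BO BAT had more Ucp1 and Ucp3 and less Ucp2 than control BAT. Ucp1 was at 1148, 1296, 1256, 1377 and 1116 CPM in the 5 controls and at 5787, 5381, 7536, 7064 and 6390 CPM in the 5 C-3BO mice, so the groups were far apart. Ucp1 rose 5.19-fold, by 2.38 ± 0.28 on the log2 scale (SE, edgeR quasi-likelihood test, adjusted p = 3.56e-08). Ucp3 was at 69.2, 70.0, 135, 85.4 and 88.2 CPM in controls and 344, 239, 303, 298 and 189.6 CPM in C-3BO. Every C-3BO mouse lay above every control, and Ucp3 rose by 1.62 ± 0.37 (edgeR adjusted p = 0.000966). Ucp2 was at 84.8, 81.9, 131, 91.4 and 87.3 CPM in controls and 57.4, 49.4, 62.1, 56.1 and 47.4 CPM in C-3BO. Here every C-3BO mouse lay below every control, and the log2 difference was -0.81 ± 0.14 (edgeR adjusted p = 1.95e-05), which is 0.572 times the control level. Of all genes tested, 15.8% were higher and 15.9% lower in this comparison.

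Macrophages are known to express Ucp2, and 12 macrophage genes were read beside it. None of the 12 passed the test in either direction in C-3BO on chow, with no gene at 0. Their median log2 change was -0.23, against -0.03 over all genes. Their summed CPM was 217, 215, 341, 256 and 221 in controls and 168, 179, 370, 189 and 148 in C-3BO. C-3BO replicate 3, at 370 CPM, also had the most Ucp2 of the C-3BO mice (62.1 CPM). The part of macrophages in the Ucp2 levels was not tested. Skeletal muscle genes in chow controls were at a summed 757 to 10120 CPM for 12 genes against 394 to 3868 CPM in chow C-3BO, and 2 of the 12 were lower in C-3BO. No muscle gene was higher in C-3BO. In bulk tissue, fewer cells of a type and less RNA per cell cannot be told apart.

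On HFD, Ucp1 and Ucp3 were again higher in C-3BO, while Ucp2 did not pass the test. Ucp1 was at 2573, 2701, 5255, 9442 and 4544 CPM in controls and 12339, 15064, 13462, 15798 and 13430 CPM in C-3BO. The controls were spread 3.67-fold, yet none reached the lowest C-3BO mouse, and Ucp1 rose by 1.52 ± 0.27 (edgeR adjusted p = 2.69e-05). Ucp3 was at 66.8, 60.5, 235, 214 and 89.4 CPM in controls and 359, 445, 319, 372 and 264 CPM in C-3BO. Replicates 3 and 4 of the controls were high for both genes, and Ucp3 rose by 1.40 ± 0.37 (edgeR adjusted p = 0.00295) with no overlap between the groups. Ucp2 was at 85.7, 86.8, 74.7, 71.7 and 92.4 CPM in controls and 77.1, 75.2, 63.7, 81.9 and 76.6 CPM in C-3BO. These ranges overlapped, and the log2 difference was -0.14 ± 0.13 (95% interval -0.41 to 0.14; edgeR adjusted p = 0.459). Over all genes, 19.3% were higher and 15.5% lower. Without replicates 4 and 5 of HFD C-3BO, Ucp1 and Ucp3 were higher by 1.47 and 1.49 (edgeR adjusted p = 0.000391 and 0.00746).

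With CL on chow, Ucp1 passed the edgeR test and Ucp2 and Ucp3 did not. Ucp1 was at 1865, 1731, 1267, 1690 and 1775 CPM with saline and 6761, 7660, 5943, 8986 and 1644 CPM with CL. Replicates 1 to 4 of CL lay above every saline mouse and replicate 5 lay within the saline range. Ucp1 rose by 1.90 ± 0.27 (edgeR adjusted p = 5.66e-06), and by 2.14 without that mouse. An exact permutation test of log2 CPM, run beside edgeR, gave p = 0.0397, which did not pass when adjusted over 24 tests (0.0733). Replicate 5 was not like saline mice throughout, since Elovl3, a fatty acid elongase induced by adrenergic stimulation of BAT, stood at 6.67 log2 CPM there, against 7.66 to 8.05 in the other CL mice and at most 3.05 with saline. Ucp2 was at 67.4, 103, 94.1, 66.9 and 72.5 CPM with saline and 83.8, 77.8, 86.7, 72.0 and 71.6 CPM with CL, and Ucp3 at 188, 118, 107, 226 and 219 CPM and 102, 115, 352, 237 and 114 CPM. Both genes overlapped between the groups, with log2 differences of -0.04 ± 0.13 for Ucp2 (95% interval -0.31 to 0.23) and 0.10 ± 0.36 for Ucp3 (95% interval -0.63 to 0.84). Their edgeR adjusted p-values were 0.870 and 0.891. Of 12 skeletal muscle genes, 9 were lower with CL on chow, and their part in the Ucp3 levels was not tested. CL on chow raised 9.16% and lowered 6.13% of all genes tested.

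On HFD, CL again raised Ucp1, and Ucp3 passed the test narrowly. Ucp1 was at 2834, 3040, 2310, 2519 and 3845 CPM with saline and 11261, 9953, 9791, 8324 and 9191 CPM with CL. The groups did not overlap, and Ucp1 rose by 1.74 ± 0.27 (edgeR adjusted p = 8.25e-06). Ucp3 was at 60.1, 110.0, 47.5, 41.1 and 196 CPM with saline and 296, 177, 139.9, 185 and 145 CPM with CL. Saline replicate 5 lay above 4 of the 5 CL mice, and Ucp3 rose by 1.01 ± 0.37 (edgeR adjusted p = 0.0453). That call was lost when any of 7 of the 10 mice was left out (edgeR adjusted p up to 0.156), when libraries were scaled by their totals (0.0685), with no filter (0.0526) and with replicate number as a block (0.0608). Ucp2 was at 118, 97.6, 84.9, 115 and 79.4 CPM with saline and 92.6, 133, 124, 120.3 and 157 CPM with CL, a log2 difference of 0.35 ± 0.14 that missed the threshold (edgeR adjusted p = 0.0558). With saline replicate 1, saline replicate 4 or CL replicate 1 left out in turn, Ucp2 passed it (adjusted p = 0.0259, 0.0365 and 0.0191). In this comparison 12.7% of all genes were higher and 10.8% lower. Macrophage genes were at a summed 449 to 1028 CPM with saline and 189 to 553 CPM with CL, and 4 of 12 were lower with CL.

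**Figure D2:**
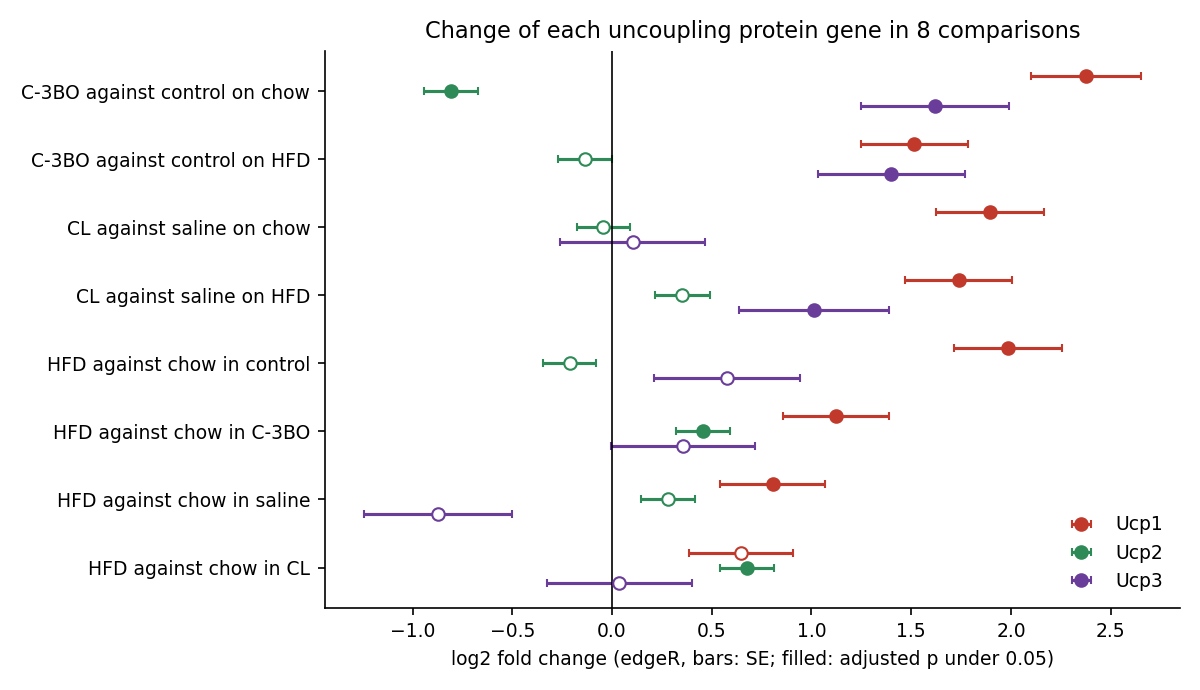
Log2 fold change of Ucp1, Ucp2 and Ucp3 (points, with SE bars, from the edgeR fit to all 40 libraries) in the 4 treatment and 4 diet comparisons. Filled points passed an adjusted p of 0.05. Ucp1 was above 0 in all 8, Ucp3 passed in 3, and Ucp2 passed as lower in C-3BO on chow and as higher on HFD within C-3BO and CL.

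The effects of the genotype and of the agonist were then set against each other, each relative to its own controls. On chow, the C-3BO effect on Ucp2 minus the CL effect was -0.76 ± 0.19 on the log2 scale (95% interval -1.14 to -0.38; edgeR adjusted p = 0.0118), and 6.24% of all genes differed in this way. For Ucp3 the C-3BO effect exceeded the CL effect by 1.51 ± 0.52 (95% interval 0.47 to 2.56), which did not pass over all genes (edgeR adjusted p = 0.0696). It passed with only the libraries of the comparison (0.0422) and with chow saline replicate 3 or chow CL replicate 3 left out (0.0461 and 0.019). Ucp1 differed by 0.48 ± 0.37 between the 2 stimuli (95% interval -0.27 to 1.23; edgeR adjusted p = 0.497). On HFD, none of the 3 passed, and 1.8% of all genes did, with differences of -0.22 ± 0.37 for Ucp1, -0.49 ± 0.19 for Ucp2 and 0.39 ± 0.52 for Ucp3. The 2 stimuli came from different cohorts, and the agonist was given for days whereas the transgene acts throughout life. BAT was taken on the day after the last CL dose, so the CL values do not show the hours after a dose.

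Ucp1 was higher on HFD in control, C-3BO and saline mice. In saline and CL mice, diet cannot be told apart from the set of low-total libraries that held liver transcripts. In controls Ucp1 rose by 1.98 ± 0.27 (edgeR adjusted p = 6.39e-07), and all 5 HFD mice lay above all 5 chow mice. In C-3BO it rose by 1.12 ± 0.26 (edgeR adjusted p = 0.00171), again without overlap. In saline mice it rose by 0.81 ± 0.26 (edgeR adjusted p = 0.0326), also without overlap, and the call was lost when any of 5 of the 10 mice was left out (adjusted p up to 0.0831). In CL mice the difference was 0.65 ± 0.26 (edgeR adjusted p = 0.0693), which passed with DESeq2 (0.0432), with library totals alone (0.0108) and without chow CL replicate 4 (0.0302). Without chow CL replicate 5, the mouse with Ucp1 in the saline range, it was 0.40 (edgeR adjusted p = 0.193). The genes higher on HFD made up 15.4%, 13.5%, 7.45% and 10.9% of all genes tested in control, C-3BO, saline and CL mice, and those lower made up 17.5%, 12.2%, 8.04% and 12.7%. These comparisons share mice with the treatment comparisons above.

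With diet, Ucp2 passed in C-3BO and CL mice and Ucp3 in none. Ucp2 rose on HFD in C-3BO, by 0.46 ± 0.14 (edgeR adjusted p = 0.0118), with no overlap between the groups. Without replicates 4 and 5 of HFD C-3BO that difference was 0.40 and did not pass (edgeR adjusted p = 0.0738). It also rose in CL mice, by 0.68 ± 0.13 (edgeR adjusted p = 0.000305), where all HFD CL libraries are among the 12 that held liver transcripts. In controls and saline mice the Ucp2 differences were -0.21 ± 0.13 and 0.28 ± 0.14 (edgeR adjusted p = 0.228 and 0.163), and the latter passed with library totals alone (0.0373) and without chow saline replicate 2 (0.0456). Of the 12 macrophage genes, 1 was higher with HFD in CL mice, namely Cd68 by 1.11 ± 0.35 (edgeR adjusted p = 0.0196), and Csf1r and C1qc were at 0.59 ± 0.25 and 0.35 ± 0.29 there (edgeR adjusted p = 0.0804 and 0.407). In saline mice 9 were higher and 1 lower, and in C-3BO none passed. Their part in the Ucp2 levels was not tested. Ucp3 passed in no diet comparison, with differences of 0.58 ± 0.37 in controls, 0.36 ± 0.36 in C-3BO, -0.87 ± 0.37 in saline and 0.04 ± 0.36 in CL mice and edgeR adjusted p-values from 0.107 to 0.962. In saline mice it was -1.35 (edgeR adjusted p = 0.0128) without HFD saline replicate 5, whose 196 CPM stood above the 110.0 CPM of the next mouse. Skeletal muscle genes fell on HFD in controls, 12 of 12, from a summed 757 to 10120 CPM to 6.43 to 212 CPM, and were at 13.1 to 2476 CPM in chow saline and 24.1 to 2049 CPM in HFD saline. Their part in the Ucp3 levels was not tested.

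Whether diet changed a treatment effect was tested directly. With the chow effect subtracted from the HFD effect, C-3BO gave -0.86 ± 0.37 for Ucp1 (edgeR adjusted p = 0.243), 0.67 ± 0.19 for Ucp2 (0.0522) and -0.22 ± 0.51 for Ucp3 (0.895), where 2.09% of all genes passed. The Ucp2 value was at the threshold, passing with DESeq2 (adjusted p = 0.0242), with RLE factors (0.046) and with the libraries of the comparison alone (0.0488). For CL the same difference was -0.16 ± 0.37, 0.40 ± 0.19 and 0.91 ± 0.52 for Ucp1, Ucp2 and Ucp3, with edgeR adjusted p-values of 0.935, 0.515 and 0.604, and 0.0151% of all genes passed.

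The order of the 8 groups differed among the members. For Ucp1 it ran, by mean log2 CPM, from HFD C-3BO (14019 ± 1390 CPM, SD, n = 5) through HFD CL (9704 ± 1079), chow C-3BO (6432 ± 886), chow CL (6199 ± 2785), HFD control (4903 ± 2790), HFD saline (2910 ± 594) and chow saline (1666 ± 232) to chow control (1239 ± 107). At the first, the second and the sixth step of this order the neighbours did not overlap, and the step passed (exact permutation test, two-sided, adjusted over 21 steps, p = 0.0417 each). At the other 4 steps the neighbours overlapped, and the step did not pass. The order was set by the same values that were tested. For Ucp3 the order began with HFD C-3BO (352 ± 66.8 CPM, SD, n = 5) and chow C-3BO (275 ± 60.8), went on with HFD CL (189 ± 63.2), chow saline (171 ± 55.9), chow CL (184 ± 109) and HFD control (133 ± 84.4), and ended with chow control (89.6 ± 26.8) and HFD saline (90.9 ± 64.6). No step in it passed, and the smallest exact permutation p was 0.0397 (adjusted 0.139), between chow C-3BO and HFD CL. For Ucp2 the order was HFD CL (125 ± 23.3 CPM, SD, n = 5), HFD saline (99.1 ± 17.5), chow control (95.3 ± 20.2), HFD control (82.2 ± 8.72), chow saline (80.8 ± 16.7), chow CL (78.4 ± 6.84), HFD C-3BO (74.9 ± 6.74) and chow C-3BO (54.5 ± 6.03). Only the last step passed (exact permutation test, adjusted p = 0.0417), so chow C-3BO stood alone at the bottom.

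Ratios within a mouse do not depend on the scaling of its library. Per kilobase, Ucp3 stood at 0.526 to 0.664 times Ucp2 in chow controls and at 2.57 to 3.86 times in chow C-3BO, so the more abundant of the pair changed place. Some mice without the transgene also had more Ucp3 than Ucp2. The ratio ran from 0.731 to 2.17 in chow saline, 0.786 to 2.61 in chow CL and 0.449 to 2.02 in HFD control. It ran from 0.231 to 1.59 in HFD saline and 0.593 to 2.06 in HFD CL. The ratio Ucp3:Ucp2 was 5.36-fold higher in C-3BO on chow and 3.37-fold higher on HFD, with no overlap on either diet (exact permutation test, two-sided, p = 0.00794 each, the smallest that 5 against 5 mice allow, and 0.019 adjusted over 24 ratio tests). With CL it was 1.01-fold that of saline on chow (exact permutation p = 0.984) and 1.89-fold on HFD (exact permutation p = 0.143). The ratio Ucp1:Ucp3 was 3.29-fold higher with CL on chow (exact permutation p = 0.0159, adjusted 0.0317) and 1.67-fold higher in C-3BO on chow (exact permutation p = 0.0159, adjusted 0.0317). In C-3BO on HFD it was 1.04-fold that of controls (exact permutation p = 0.857), and with CL on HFD it was 1.41-fold that of saline (exact permutation p = 0.206).

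The Ucp1:Ucp3 ratio was higher on HFD in 3 of 4 backgrounds. It was 2.72-fold higher in controls, 1.70-fold in C-3BO and 3.72-fold in saline mice, without overlap in any of the 3 (exact permutation p = 0.00794 each, adjusted 0.019). In CL mice it was 1.60-fold that on chow (exact permutation p = 0.238). For saline and CL mice, diet cannot be told apart from the low-total libraries that held liver transcripts. The ratio Ucp1:Ucp2 rose 8.93-fold in C-3BO on chow, from 9.19 to 15.2 in controls to 96.5 to 129 in C-3BO, since Ucp1 and Ucp2 moved in opposite directions there. On HFD it rose 3.51-fold in C-3BO and 2.67-fold with CL (exact permutation p = 0.00794 each, adjusted 0.019). With CL on chow it was 3.32-fold that of saline with overlap between the groups (exact permutation p = 0.0317, adjusted 0.0586).

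Mice of 1 group that had more Ucp1 also tended to have more Ucp3. After the group mean was subtracted from each log2 CPM value, Pearson's r between Ucp1 and Ucp3 over 40 mice was 0.53 (permutation within groups, p = 0.00951, adjusted over 3 pairs 0.0285) and Spearman's rho was 0.60 (p = 0.00075, adjusted 0.00225). Leaving out the 2 mice farthest from the median gave r = 0.58. In the 12 libraries with the lowest totals r was 0.88 (permutation p = 0.00309), and in the other 28 it was 0.52 (permutation p = 0.0597). With libraries scaled by their totals r was 0.49, and its p of 0.0224 became 0.0671 when adjusted over the 3 pairs. Ucp1 and Ucp2 had r = -0.12 (permutation p = 0.366), and Ucp2 and Ucp3 had r = -0.29 (permutation p = 0.083).

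**Figure D3:**
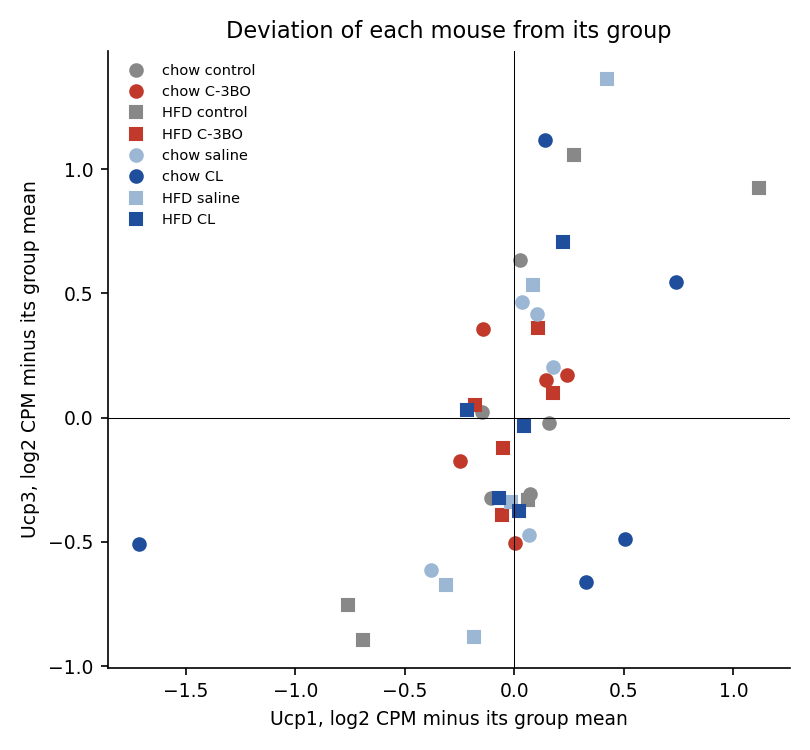
Each of 40 mice by its Ucp1 and Ucp3 log2 CPM minus the mean of its group, with colours for treatment and circles and squares for chow and HFD. The mice run from low in both genes to high in both (r = 0.53), and 1 chow CL mouse lies far to the left.

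The summed level of 6 general adipocyte genes moved within groups with Ucp1 (r = 0.71) and with Ucp3 (r = 0.68), and not with Ucp2 (r = -0.21). Ucp2 instead moved with the summed level of the 12 macrophage genes (r = 0.77), which had r of -0.26 and -0.20 with Ucp1 and Ucp3. These values describe 40 mice with group means removed and carry no test. The part of cell composition in the levels of the 3 genes was not tested.

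Over the 40 mice without regard to group, the genes most like each member were different sets. Mgll, the monoacylglycerol lipase of the last step of lipolysis, was most like Ucp1 (Pearson's r of log2 CPM 0.95), followed by Etfdh (0.95), which passes electrons from fatty acid oxidation to ubiquinone, Pigq (0.94), Tada2b (0.93) and Ephx2 (0.93). Impdh1 and Snhg11 were least like it, at -0.95 and -0.92. Abhd5, the coactivator of the triglyceride lipase ATGL, was most like Ucp3 (0.92), followed by Bscl2 (0.90), which encodes the lipid droplet protein seipin, Otop1 (0.90), Orai3 (0.89) and Pdp2 (0.89), a phosphatase that activates pyruvate dehydrogenase. Slc6a8, a creatine transporter, and Vim were least like it, both at -0.86. For Ucp2 the list was Birc5 (0.83), Mki67 (0.81), Top2a (0.81), Aurkb (0.80) and Rrm2 (0.80), and the lowest were Foxk2 (-0.79) and Aldh2 (-0.75). Birc5 and Aurkb had low mean levels of 0.44 and 0.45 log2 CPM. With group means removed, r was 0.82 for Mgll with Ucp1, 0.81 for Abhd5 with Ucp3 and 0.62 for Birc5 with Ucp2. For Ucp2 it was 0.59 with Aurkb, 0.47 with Rrm2, 0.42 with Mki67, 0.38 with Top2a, -0.52 with Foxk2 and -0.18 with Aldh2, nearer to 0 in each case than over all mice. Ucp3 ranked 1011th of 13276 genes in likeness to Ucp1 (r = 0.66), and Ucp2 ranked 7508th (r = -0.11).

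Other mitochondrial carriers related to the family were counted beside it. Of 7 relatives tested (the UCP-like carriers Slc25a14, Slc25a27 and Slc25a30, the dicarboxylate and oxoglutarate carriers Slc25a10 and Slc25a11, and the ADP/ATP carriers Slc25a4 and Slc25a5), none passed on HFD in C-3BO or with CL. In C-3BO on chow 3 of the 7 passed, beside 15.8% of all genes higher and 15.9% lower. Slc25a11 was higher by 0.32 ± 0.10 and the ADP/ATP carriers were lower, Slc25a4 at -0.46 ± 0.10 and Slc25a5 at -0.25 ± 0.09 (edgeR adjusted p = 0.0112, 0.000640 and 0.0240). With CL on chow Slc25a5 was higher by 0.30 ± 0.09 (edgeR adjusted p = 0.0130). In controls on HFD Slc25a4 and Slc25a5 were lower, at -0.57 ± 0.10 and -0.47 ± 0.09, and Slc25a11 was higher by 0.25 ± 0.10. Of 12 skeletal muscle genes, 12 were lower in controls on HFD, 2 in C-3BO on chow and 9 with CL on chow. The part of muscle in the carrier levels was not tested. ADP/ATP carriers are known to carry a fatty acid dependent proton leak in other tissues.

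Known regulators of Ucp1 transcription were counted in the same comparisons. Of 23 genes listed as activators of Ucp1, 6 were higher and 1 lower in C-3BO on chow, 5 and 3 on HFD, 1 and 4 with CL on chow, and 1 and 2 with CL on HFD. Over all genes, the shares higher and lower were 15.8% and 15.9%, 19.3% and 15.5%, 9.16% and 6.13%, and 12.7% and 10.8% in the same order. The coactivator Ppargc1a passed in none of these 4. Dio2, which makes active thyroid hormone in BAT, rose by 1.57 ± 0.44 and 2.65 ± 0.45 in C-3BO on chow and HFD and by 2.22 ± 0.47 with CL on HFD. Cebpb, a transcription factor of the Ucp1 promoter, rose by 1.38 ± 0.26 and 1.68 ± 0.26 in C-3BO and fell by 0.79 with CL on chow (edgeR adjusted p = 0.0284). On HFD Ppargc1b was lower, at -0.56 ± 0.15 in C-3BO and -0.87 ± 0.15 with CL. Among 12 listed repressors, 2 were higher and 1 lower in C-3BO on chow, 2 and 3 on HFD, 0 and 2 with CL on chow and 0 and 5 with CL on HFD. Twist1, which restrains PGC-1α in brown fat, was at -1.05 ± 0.21 and -1.05 ± 0.21 in C-3BO (edgeR adjusted p = 0.000216 and 0.000195), and Tle3, a corepressor that opposes PRDM16, was at -0.80 ± 0.15 with CL on chow (edgeR adjusted p = 0.000208). Nrip1, the corepressor RIP140, rose by 0.80 ± 0.30 in C-3BO on HFD (edgeR adjusted p = 0.0375).

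Ucp3 is a known target of the fatty acid receptors of the PPAR family, and 24 other genes of fatty acid oxidation and PPAR signalling were set beside it. In C-3BO on chow 18 of 24 were higher and 2 lower, with a median log2 change of 0.59 against -0.03 over all genes. On HFD 14 of 24 were higher and 2 lower (median 0.52, all genes -0.02). With CL 13 of 24 were higher and 2 lower on chow (median 0.40, all genes -0.01), and 13 of 24 were higher and 1 lower on HFD (median 0.53, all genes -0.01). Over all genes, the shares higher and lower were 15.8% and 15.9%, 19.3% and 15.5%, 9.16% and 6.13%, and 12.7% and 10.8% in the same order. The list was chosen with earlier results of these data known. Ehhadh of peroxisomal oxidation rose by 3.54 ± 0.54 in C-3BO on chow and was at -0.31 ± 0.49 with CL on chow (edgeR adjusted p = 0.734). Acot1, a cytosolic acyl-CoA thioesterase, rose by 3.31 ± 0.78 in C-3BO on chow and was at 0.10 ± 0.72 with CL on chow (edgeR adjusted p = 0.954). Both were named for the largest changes in the list, which lay in C-3BO on chow, and those same values enter the differences that follow. On chow, C-3BO exceeded CL by 3.84 ± 0.72 for Ehhadh and 3.22 ± 1.06 for Acot1 (edgeR adjusted p = 0.000767 and 0.0601), beside 1.51 ± 0.52 for Ucp3. On HFD the same differences were 1.64 ± 0.72 and 1.02 ± 1.17 and did not pass (edgeR adjusted p = 0.284 and 0.796). Angptl4, an inhibitor of lipoprotein lipase and a PPAR target, went the other way from Ucp3 in C-3BO, at -1.09 ± 0.34 on chow and -1.26 ± 0.34 on HFD (edgeR adjusted p = 0.0130 and 0.00404). With CL it was at -0.90 ± 0.34 on chow and -1.83 ± 0.35 on HFD (edgeR adjusted p = 0.0673 and 0.000179). On chow, the C-3BO effect on Angptl4 minus the CL effect was -0.20 ± 0.48 (edgeR adjusted p = 0.864).

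**Figure D4:**
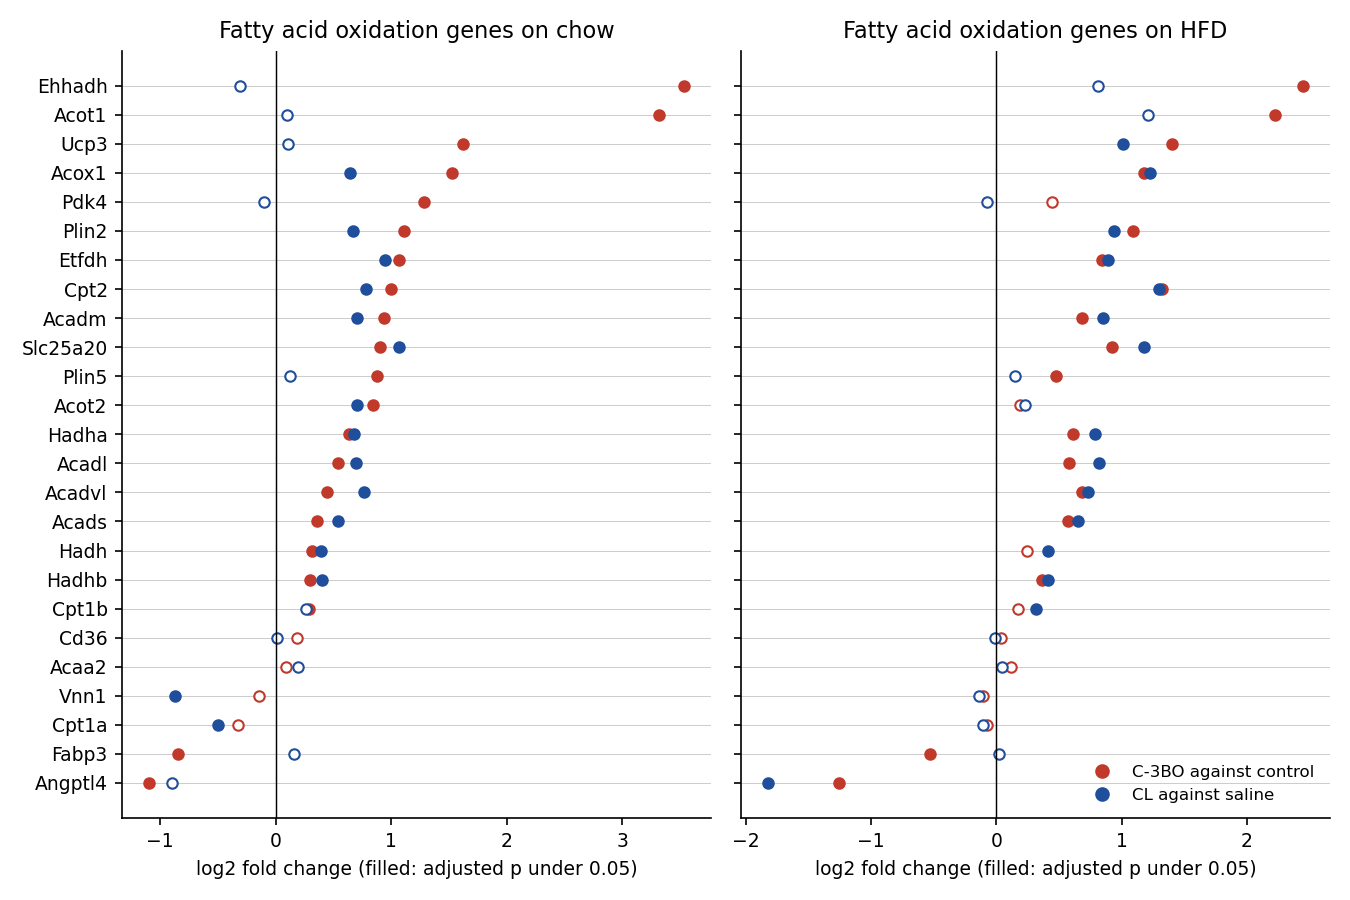
Log2 fold changes of Ucp3 and 24 genes of fatty acid oxidation and PPAR signalling in C-3BO against control (red) and CL against saline (blue), on chow (left) and HFD (right), ordered by the C-3BO effect on chow. Filled points passed an adjusted p of 0.05, and Ehhadh, Acot1 and Ucp3 lie highest for C-3BO on chow, at 3.54, 3.31 and 1.62.

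Nuclear genes of the respiratory chain, against whose proton gradient UCP1 works, were counted beside Ucp1. Of 20 listed, 2 were higher in C-3BO on chow, where 15.8% of all genes were. In C-3BO on HFD 17 were higher (all genes 19.3%), with CL on chow 13 (9.16%) and with CL on HFD 12 (12.7%), and none was lower in these 4. In controls on HFD 12 of the 20 were lower, beside 17.5% of all genes, and none was higher. Of 12 skeletal muscle genes, 12 were lower in controls on HFD, 2 in C-3BO on chow and 9 with CL on chow. In C-3BO on HFD and with CL on HFD 1 muscle gene was higher and 0 lower. The part of muscle in the respiratory chain counts was not tested. Cycs, cytochrome c, was higher by 1.25 ± 0.20 in C-3BO on HFD and lower in controls on HFD, at -0.67 ± 0.20 (edgeR adjusted p = 0.00782). Among the 12 genes that mark brown adipocytes, 6 were higher and 1 lower in C-3BO on chow, 5 and 0 on HFD, 3 and 0 with CL on chow and 5 and 0 with CL on HFD. Elovl3 rose by 6.80 ± 0.50 in C-3BO on HFD and 5.28 ± 0.46 with CL on chow. On HFD in controls it was lower, at -3.62 ± 0.47 (edgeR adjusted p = 2.74e-07), although Ucp1 was higher. The 6 general adipocyte genes were higher in 3, 1, 2 and 2 cases and lower in 1, 0, 1 and 0, in the order of comparisons above. White fat genes, of which 5 were tested, were 0 higher and 1 lower in C-3BO on chow, 2 and 1 on HFD and 0 and 1 with CL on either diet, and Lep, the leptin gene, was at -1.74 ± 0.55 and -2.29 ± 0.55 in C-3BO on chow and HFD. Liver genes were higher, 12 of 12, and epididymis genes, 3 of 4, in C-3BO on HFD, where the summed liver level had a median of 4.35 CPM and a maximum of 439 CPM over the 5 C-3BO mice. No gene of either list passed in the other 3 treatment comparisons.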

How the data were processed

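BAT of 40 male mice was measured by RNA sequencing. Per the methods and the labels, the authors isolated total RNA, prepared TruSeq libraries from oligo-dT selected RNA, mapped reads to mm9 with STAR, and counted reads on RefSeq exons with HOMER and iRNA-seq. The deposited counts are whole numbers per gene and mouse without normalization, and levels per kilobase used the counted exon length given in the same table. Versions and strandedness are not given in the sources used here.

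Groups were taken from the labels. Genes were filtered with filterByExpr of edgeR 4.0.16 (minimum count 10), scaled by TMM, and tested in 1 quasi-likelihood model over all 40 libraries with 1 mean per group, in R 4.3.3. Benjamini-Hochberg adjustment ran across the 13277 genes, with calls at 0.05. Each SE came from the size of the change and its F value. Log2 CPM used a prior count of 2, and ratios within a mouse used counts per kilobase with 0.5 added. Single values were compared by exact permutation between 5 and 5 mice, and correlations with group means removed by 100000 permutations within groups. The study used DESeq2 for its own comparisons, which served here as an alternative (version 1.42.0). The model was tested on simulated data with known changes.

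Library totals ran from 849126 to 15260516, with 3 counts as the floor. The 95% intervals give the uncertainty of a log2 difference between groups, as estimated from the spread between mice. The members and the gene lists were chosen with earlier results of these data known, and 1 gene of the fatty acid oxidation list is not reported here. Named genes were the 3 members, for each the 5 genes most and the 2 least like it, and up to 3 genes per list with the largest change among those that passed in a treatment comparison, plus genes whose role a sentence explains. Alternatives were DESeq2, library totals or RLE factors, no filter, the libraries of a comparison alone, the replicate number as a block, each replicate left out, and HFD C-3BO without replicates 4 and 5. For correlations, the 12 libraries with the lowest totals alone were added after the data were seen.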

Additional observations from a re-analysis of the deposited data

Results flagged for a closer look

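Ucp2 in chow control replicate 3 was at 130.9 CPM, with the next highest control at 91.4 CPM, and Ucp3 in the same mouse was at 135 CPM, with the next at 88.2 CPM. Both stood far from the other 4 mice by Dixon's test, which flags about 1 in 20 groups by chance, and 2 of 48 groups tested were flagged. That library also had the highest summed macrophage level (341 CPM) and skeletal muscle level (10120 CPM) of the chow controls, and their part in the 2 values was not tested. Without this mouse, the log2 differences of C-3BO on chow were -0.66 for Ucp2 and 1.81 for Ucp3 (edgeR adjusted p = 0.000171 and 0.000734).

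The C-3BO effect on Ucp2 on chow differed from the CL effect on chow by -0.76 on the log2 scale (edgeR adjusted p = 0.0118). Its adjusted p lay between 0.00414 and 0.0351 over all alternatives.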

How the results depend on the processing

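Ucp1 in all 4 treatment comparisons, Ucp2 and Ucp3 in C-3BO on chow, Ucp3 in C-3BO on HFD, and Ucp1 with HFD in controls and in C-3BO and Ucp2 with HFD in CL kept their direction and their call under every alternative run. The exact permutation test of log2 CPM was run beside edgeR and is not among these alternatives. By that test Ucp1 with CL on chow and Ucp3 with CL on HFD did not pass (exact permutation adjusted p = 0.0733 and 0.0816). Ucp1 with HFD in CL passed it (exact permutation adjusted p = 0.0317). Of 228 alternatives to the log2 differences other than leaving out 1 mouse, 216 left direction and call as they were. The causes of the changes below were not tested. Scaling by library totals put the median log2 difference of all genes at -0.23 to 0.21 over the comparisons, against -0.03 to 0.03 in the main fit. It gave -0.0195 for Ucp3 with CL on chow and 0.87 for Ucp3 with CL on HFD (call lost). Now passing were 0.44 for Ucp2 with HFD in saline and 0.83 for Ucp1 with HFD in CL. DESeq2 gave 0.67 for Ucp1 with HFD in CL and 0.68 for the diet difference of the C-3BO effect on Ucp2, both passing. That Ucp2 difference also passed with RLE factors (0.68) and with the libraries of the comparison alone (0.66), which gave 1.54, passing, for the C-3BO effect less the CL effect on Ucp3 on chow. Ucp3 with CL on HFD lost its call without a filter (1.00) and with the replicate number as a block (0.99). Deviations of same-numbered mice correlated at -0.38 to 0.44, above 0.1 in at most 3 of 5 pairs of a comparison. Mice of different numbers were not compared, so whether a number stands for something shared was not tested. The block changed no other call. Without replicates 4 and 5 of HFD C-3BO, Ucp2 with HFD in C-3BO was 0.40 (call lost), the log2 ratio Ucp1:Ucp3 in C-3BO on HFD was -0.0774 and Ucp3:Ucp2 with HFD in C-3BO was 0.0592. The correlation of Ucp1 and Ucp3 was 0.52 without the 12 libraries (no longer passing) and 0.49 with library totals (adjusted p = 0.0671 over the 3 pairs, permutation within groups), and that of Ucp2 and Ucp3 was -0.38 without the 2 farthest mice (passing before adjustment).

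With each mouse left out in turn, calls were lost at least once for Ucp1 with HFD in saline (0.69 to 0.88), Ucp3 with CL on HFD (0.79 to 1.51), and the log2 ratios Ucp1:Ucp2 with CL on chow (1.52 to 2.13) and Ucp3:Ucp2 with HFD in saline (-1.82 to -1.12), both read before adjustment. Differences that passed at least once were Ucp2 with CL on HFD (0.26 to 0.45), Ucp2 with HFD in saline (0.21 to 0.39), Ucp3 with HFD in saline (-1.35 to -0.70), Ucp1 with HFD in CL (0.40 to 0.82), the diet difference of the C-3BO effect on Ucp2 (0.53 to 0.72), the C-3BO effect less the CL effect on Ucp3 on chow (1.36 to 1.89) and the ratio Ucp3:Ucp2 with CL on HFD (0.64 to 1.33). Values that passed in no case changed sign for Ucp2 (-0.11 to 0.0467) and Ucp3 (-0.27 to 0.26) with CL on chow, Ucp3 with HFD in CL (-0.19 to 0.41), the diet difference of the C-3BO effect on Ucp3 (-0.44 to 0.0572) and of the CL effect on Ucp1 (-0.40 to 0.0135), the C-3BO effect less the CL effect on HFD on Ucp1 (-0.40 to 0.15) and Ucp3 (-0.11 to 0.68), and the ratios Ucp1:Ucp2 with HFD in CL (-0.22 to 0.39), Ucp1:Ucp3 in C-3BO on HFD (-0.14 to 0.16), Ucp3:Ucp2 with CL on chow (-0.23 to 0.20) and Ucp3:Ucp2 with HFD in C-3BO (-0.18 to 0.0122). Depth limits Ucp3 in HFD saline replicate 4, where it rests on 41 counts.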
